A study of Mus musculus with 14 samples.

Results

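The voltage-gated sodium and calcium channels, the HCN channels and NALCN were taken as every gene whose symbol marks a sodium channel alpha or beta subunit (Scn), a calcium channel alpha-1, alpha-2-delta or beta subunit (Cacna1, Cacna2d, Cacnb), an HCN channel (Hcn), or Nalcn. The rule found 37 genes in each of 2 count tables, of 25229 symbols in the progenitor table and 55353 in the postmitotic table, and 0 antisense names had to be left out. The 34 described here include 10 calcium alpha-1 subunits (4 Cav1, 3 Cav2 and 3 Cav3), 4 alpha-2-delta and 4 calcium beta subunits. RNA was sequenced from layer II/III of mouse cerebral cortex, microdissected at postnatal day 5, in 14 libraries. In the progenitor experiment, Lhx2lox/lox embryos received an EGFP plasmid by electroporation at E15.5 (4 control libraries) or a Cre-EGFP plasmid (4 libraries labelled mutant). The postmitotic experiment used EGFP alone, in Lhx2lox/lox mice (3 control libraries) and in NexCre/+; Lhx2lox/lox mice (3 libraries labelled mutant). The study asks what removal of Lhx2, a LIM-homeodomain transcription factor, does to the dendrites of these neurons. Every control carries the floxed allele too, no control carries Cre, a plasmid reaches only the electroporated cells, and NexCre, driven from Neurod6, is active in newly born excitatory neurons.

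Sodium channels open on depolarisation and carry the upstroke of the action potential: an alpha subunit forms the pore, and beta subunits alter its gating and its place in the membrane. Calcium channels couple depolarisation to calcium entry through an alpha-1 pore (L-type in the Cav1 class, P/Q-, N- and R-type in Cav2, T-type in Cav3), with alpha-2-delta and cytoplasmic beta subunits that bring the pore to the surface. HCN channels open on hyperpolarisation, and NALCN carries a sodium leak at rest. In young cortical neurons these families set excitability and the calcium entry that accompanies it.

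The 250 bases before the start site, from RefSeq on GRCm38.p6, were matched for 27 of the 34 genes, with 37 start sites. These were searched on both strands, by each motif and its reverse complement, for GGGCGG (the GC box), for an E-box with the letters CAGATG, for TAATTA (a core that many homeodomain proteins bind, the same on both strands) and for a TATA motif with the letters TATAAA. The GC box occurred in 15 of the 37 windows (40.5%, against 32.7% of 32851 windows of that length in the RefSeq table), the E-box in 5 (13.5% against 14.4%), the TATA motif in 2 (5.41% against 12.4%) and the homeodomain core in 0 (against 4.84%). A match is a run of letters, not a shown site. Below are the windows of 4 genes that the results turn on and whose window holds 0 bases of an annotated exon: Scn9a and Cacna1b, the sodium and the calcium pore subunit with the largest called increases, Hcn4, and Cacna2d1, the gene called in both experiments. Capitals mark the GC box on either strand. The Scn9a window (chr2:66634963-66635212, minus strand) holds 0 of the motifs, Cacna1b (chr2:24763153-24763402, minus strand) 3 GC boxes, Hcn4 (chr9:58822699-58822948, plus strand) 2, and Cacna2d1 (chr5:15934441-15934690, plus strand) 6.
Scn9a: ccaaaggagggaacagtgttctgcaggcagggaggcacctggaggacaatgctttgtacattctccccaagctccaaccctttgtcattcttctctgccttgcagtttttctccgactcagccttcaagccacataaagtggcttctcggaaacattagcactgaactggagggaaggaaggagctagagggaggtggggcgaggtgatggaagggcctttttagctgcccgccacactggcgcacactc
Cacna1b: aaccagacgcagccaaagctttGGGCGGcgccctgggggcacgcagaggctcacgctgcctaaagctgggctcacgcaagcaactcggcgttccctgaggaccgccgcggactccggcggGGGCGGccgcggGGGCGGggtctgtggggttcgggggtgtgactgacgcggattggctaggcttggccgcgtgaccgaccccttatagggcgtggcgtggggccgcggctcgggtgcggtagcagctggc
Hcn4: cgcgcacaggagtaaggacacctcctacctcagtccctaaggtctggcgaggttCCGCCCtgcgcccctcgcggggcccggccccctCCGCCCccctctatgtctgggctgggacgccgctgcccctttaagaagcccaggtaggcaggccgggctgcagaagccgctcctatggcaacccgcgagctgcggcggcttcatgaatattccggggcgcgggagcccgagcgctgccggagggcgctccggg
Cacna2d1: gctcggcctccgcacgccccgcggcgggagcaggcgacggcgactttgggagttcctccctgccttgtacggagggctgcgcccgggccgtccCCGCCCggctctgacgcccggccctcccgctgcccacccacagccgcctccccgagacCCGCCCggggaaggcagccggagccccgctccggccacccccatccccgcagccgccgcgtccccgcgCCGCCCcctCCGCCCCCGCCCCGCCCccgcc

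Library totals were 22677019 to 29497595 counts in the progenitor and 21605777 to 25891416 in the postmitotic experiment, and every progenitor control was deeper than every progenitor library labelled mutant. Lhx2 had no lower mean under the mutant label in either experiment: 127 ± 9.10 against 130 ± 11.4 CPM (SD, n = 4 each) in the progenitor experiment, with p = 0.743 by an exact permutation test (two-sided), and 147 ± 3.48 against 179 ± 7.41 CPM (SD, n = 3 each) in the postmitotic, with p = 0.1 by the same exact test, the smallest that 3 against 3 allows. By edgeR, Lhx2 was called higher in the postmitotic libraries labelled mutant (log2 fold change 0.29, edgeR adjusted p = 0.0276). Counts cover the whole gene, so this does not check a deletion of part of it, and groups are therefore named by their labels throughout. The summed CPM of 4 single-copy Y-linked genes was above 1 in progenitor libraries 2, 3 and 4 labelled mutant and in 0 of 4 controls there. In the postmitotic set it was above 1 in 2 of 3 controls (1 and 2) and 1 of 3 libraries labelled mutant (library 3). Library 3 of the latter in the progenitor set also held 555 CPM of Xist. The labels name layer II/III neurons. Markers of upper-layer excitatory neurons summed to 1968 to 2159 CPM in progenitor controls, but none of the 8 other marker lists had a gene at 0 in every library of an experiment either (Eomes, of the immature neuron list, was at 0 in some libraries of each group), and those of astrocytes summed to 1743 to 2261 CPM there. In such dissected tissue, fewer cells of a type and less RNA per cell cannot be told apart. No label ties a library to an animal of its own, so p-values measure the spread between libraries, which may be partly technical. CPM are counts relative to the TMM-scaled library total, each adjusted p is from the quasi-likelihood test of edgeR (Benjamini-Hochberg, over all tested genes), and a gene is called at an adjusted p under 0.05.

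Per kilobase of exon, Cacnb3, the beta subunit that many neuronal calcium channels carry, had the highest level of the 34 genes in both sets of controls. It stood at 69.2 ± 5.81 CPM per kb in progenitor controls (SD, n = 4) and at 72.3 ± 5.02 in postmitotic controls (SD, n = 3), and its range met that of no other member. In progenitor controls the next levels per kb were those of Scn3b (38.1), Scn2a (34.6), Cacna1b (32.9) and Cacna1g (32.4), and each range overlapped its neighbour's. In postmitotic controls Cacna1b came next (46.3 CPM per kb), apart from Scn3b (38.7), which stood apart from Cacna1g (29.0) and Scn2a (28.5), and the last pair overlapped. At the low end, Scn10a, an alpha subunit of sensory neurons, and Scn4a, that of skeletal muscle, had 0 to 3 counts in control libraries.

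**Figure D1:**
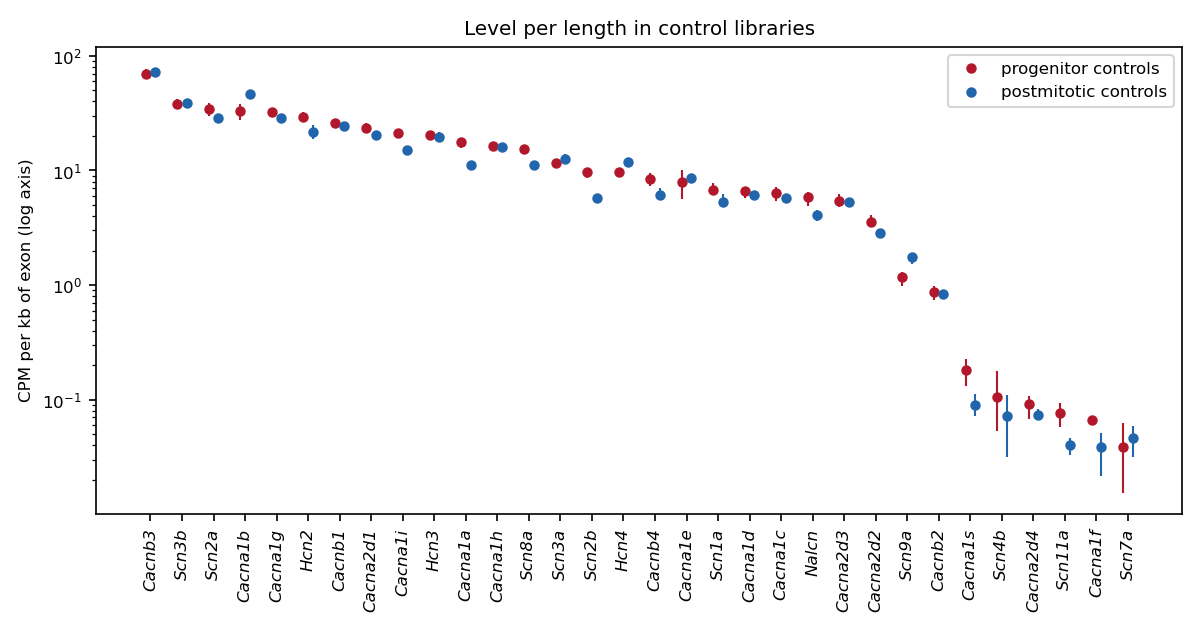
Level per length of 32 channel genes in control libraries, in CPM per kb of exon on a log axis, ordered by the progenitor mean. Points are means, lines run from the lowest to the highest library (n = 4 progenitor, n = 3 postmitotic), and Scn4a and Scn10a, at 0 in some libraries, are not drawn. Cacnb3 lies above all others in both sets, and 6 genes at the right lie under 0.2 CPM per kb.

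In the progenitor experiment the channels changed in both directions: 7 genes rose (Scn9a, Cacna1b, Cacna1d, Cacna1h, Cacna1g, Hcn4 and Hcn3) and 4 fell (Scn2b, Cacna2d1, Hcn2 and Cacnb1). Scn4a, Scn10a and Scn11a were too low to be tested, so these are 11 of 31 tested genes, or 35.5%, where 23.4% of all 15295 genes in that test were called (12% higher, 11.4% lower). The median log2 fold change of the 31 was 0.07. The groups did not overlap for 11 of the 31 (the called genes other than Cacna2d1, and Cacna1f), against 27% of all tested genes. Grouped by role after the values were seen, and so without a test, the 10 calcium alpha-1 pore genes had 4 higher and 0 lower (median log2 fold change 0.28), while the 11 auxiliary subunits of both channel families had 0 higher and 3 lower (median -0.03). The 10 tested sodium, HCN and Nalcn pore genes had 3 higher and 1 lower (median 0.0028). The median over all tested genes was 0.0040.

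**Figure D2:**
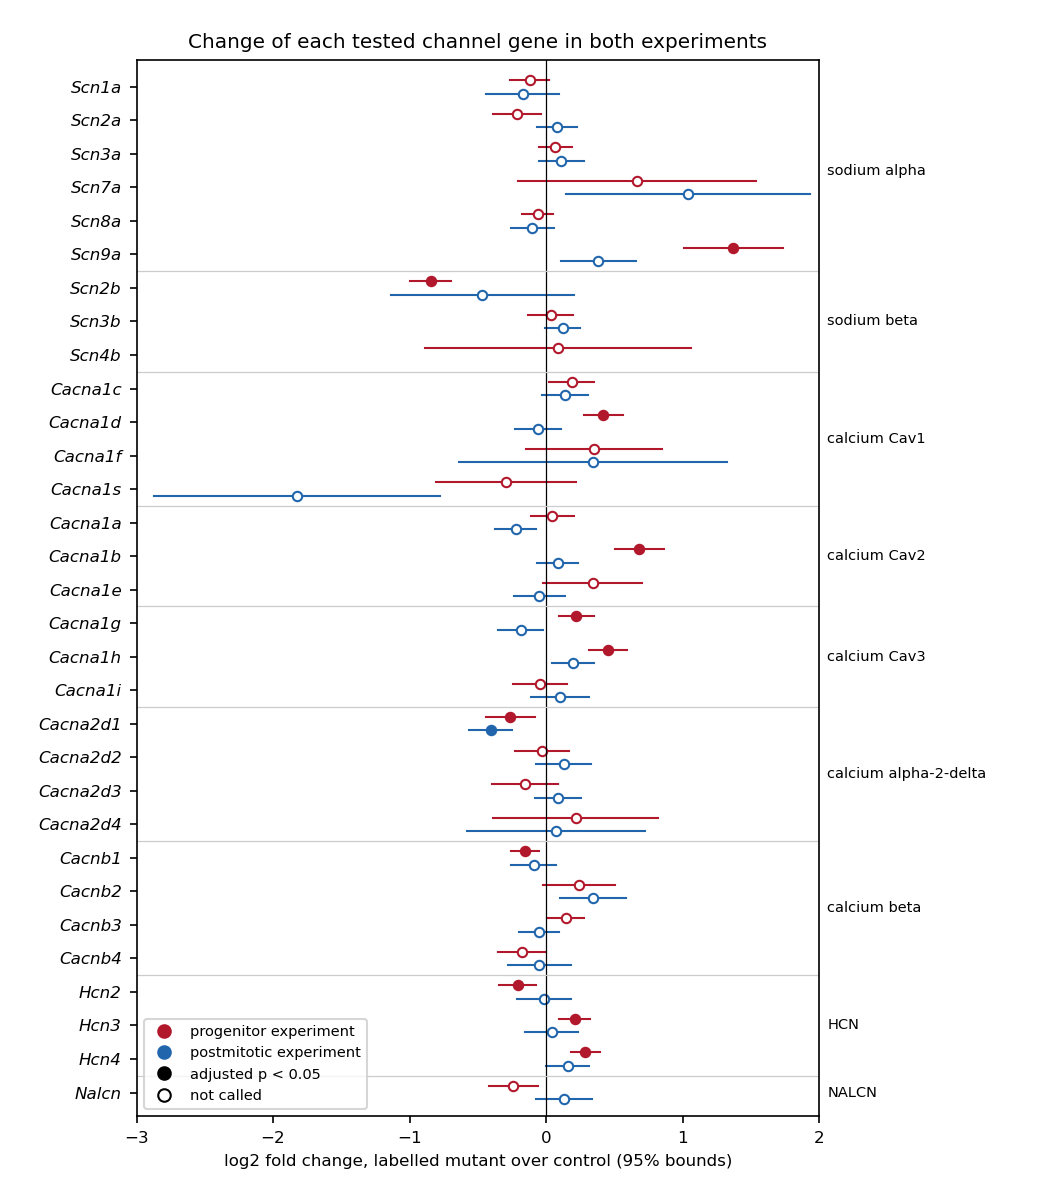
Log2 fold change of each tested channel gene, libraries labelled mutant over control, with 95% bounds, by class. Red is the progenitor experiment (n = 4 against 4) and blue the postmitotic (n = 3 against 3), and filled points have an edgeR adjusted p under 0.05. Scn9a lies farthest right (1.37) and Scn2b, of the called genes, farthest left (-0.84), and Cacna2d1 is filled in both colours.

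Among the sodium alpha subunits, Scn9a, best known from peripheral sensory neurons, rose and the 4 subunits that dominate the central nervous system were not called. Scn9a had 12.5, 15.8, 16.5 and 14.8 CPM in progenitor controls 1 to 4 and 39.4, 48.7, 38.8 and 27.7 CPM in libraries 1 to 4 labelled mutant. Every library labelled mutant exceeded every control. Its log2 fold change was 1.37 ± 0.16 (SE), a 2.59-fold increase (edgeR adjusted p = 0.000640). Scn9a (chromosome 2, 66480080 to 66634962, minus strand, GRCm38/mm10) lies in a run of 5 sodium alpha genes with Scn3a (from 65457118), Scn2a, Scn1a and Scn7a (to 66784914). The other 4 genes of that run were not called. Scn9a overlaps predicted genes on the opposite strand, and whether counting used strand is not stated in the sources at hand.

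Scn2a, the main alpha subunit of the young axon in excitatory neurons, had 420, 491, 377 and 474 CPM in progenitor controls and 362, 403, 362 and 393 CPM in libraries labelled mutant, a log2 fold change of -0.21 ± 0.08 (SE) that did not pass (edgeR adjusted p = 0.0755). Control 3 was the lowest control and lay within the range of the other group. Without that library, Scn2a was called lower, at -0.28 ± 0.07 (SE) with an edgeR adjusted p = 0.0132. Leaving out the library nearest the other group widens the difference by choice. Calls gained that way, here and below, show dependence on 1 library and are no separate support. Scn1a, the main alpha subunit of many interneurons, had 71.9, 86.3, 73.0 and 69.8 CPM in controls and 71.2, 68.0, 69.6 and 68.0 CPM in libraries labelled mutant, and the groups overlapped. Scn8a, which takes over at the axon initial segment as neurons mature, had 246, 258, 226 and 237 against 226, 224, 242 and 233 CPM, also with overlap. The 95% bounds of its log2 fold change were -0.18 and 0.05. Scn3a, the alpha subunit of the fetal and neonatal brain, had 137, 157, 138 and 145 against 146, 158, 148 and 153 CPM, with bounds of -0.05 and 0.19. Scn7a was tested at 3 to 12 counts a library and not called. Scn11a, a sensory neuron gene too low to be tested, had 10, 14, 9 and 16 counts in controls and 5, 4, 4 and 6 in libraries labelled mutant, without overlap. It entered the test without library 4 labelled mutant and was then called lower (edgeR adjusted p = 0.0443). Its level was 0.34 to 0.55 CPM in controls and 0.17 to 0.26 CPM in libraries labelled mutant. Scn11a thus passed the filter on low counts through its controls, which favours a lower call, and no result is drawn from it. Scn4a and Scn10a had at most 4 counts.

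Of the sodium beta subunits, Scn2b fell. Scn2b, which binds the alpha subunit through a disulphide bond, had 46.3, 48.1, 39.8 and 47.8 CPM in progenitor controls and 26.7, 24.5, 25.1 and 25.1 CPM in libraries labelled mutant. The groups lay far apart, with a log2 fold change of -0.84 ± 0.07 (SE), 44.3% lower, and the smallest edgeR adjusted p of any member, 3.03e-05. Scn3b, a beta subunit high in the developing brain, had 198 to 230 CPM in controls and 194 to 246 CPM in libraries labelled mutant and was not called. Scn4b, next to Scn2b on chromosome 9, had 5 to 26 counts a library and was not called either.

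**Figure D3:**
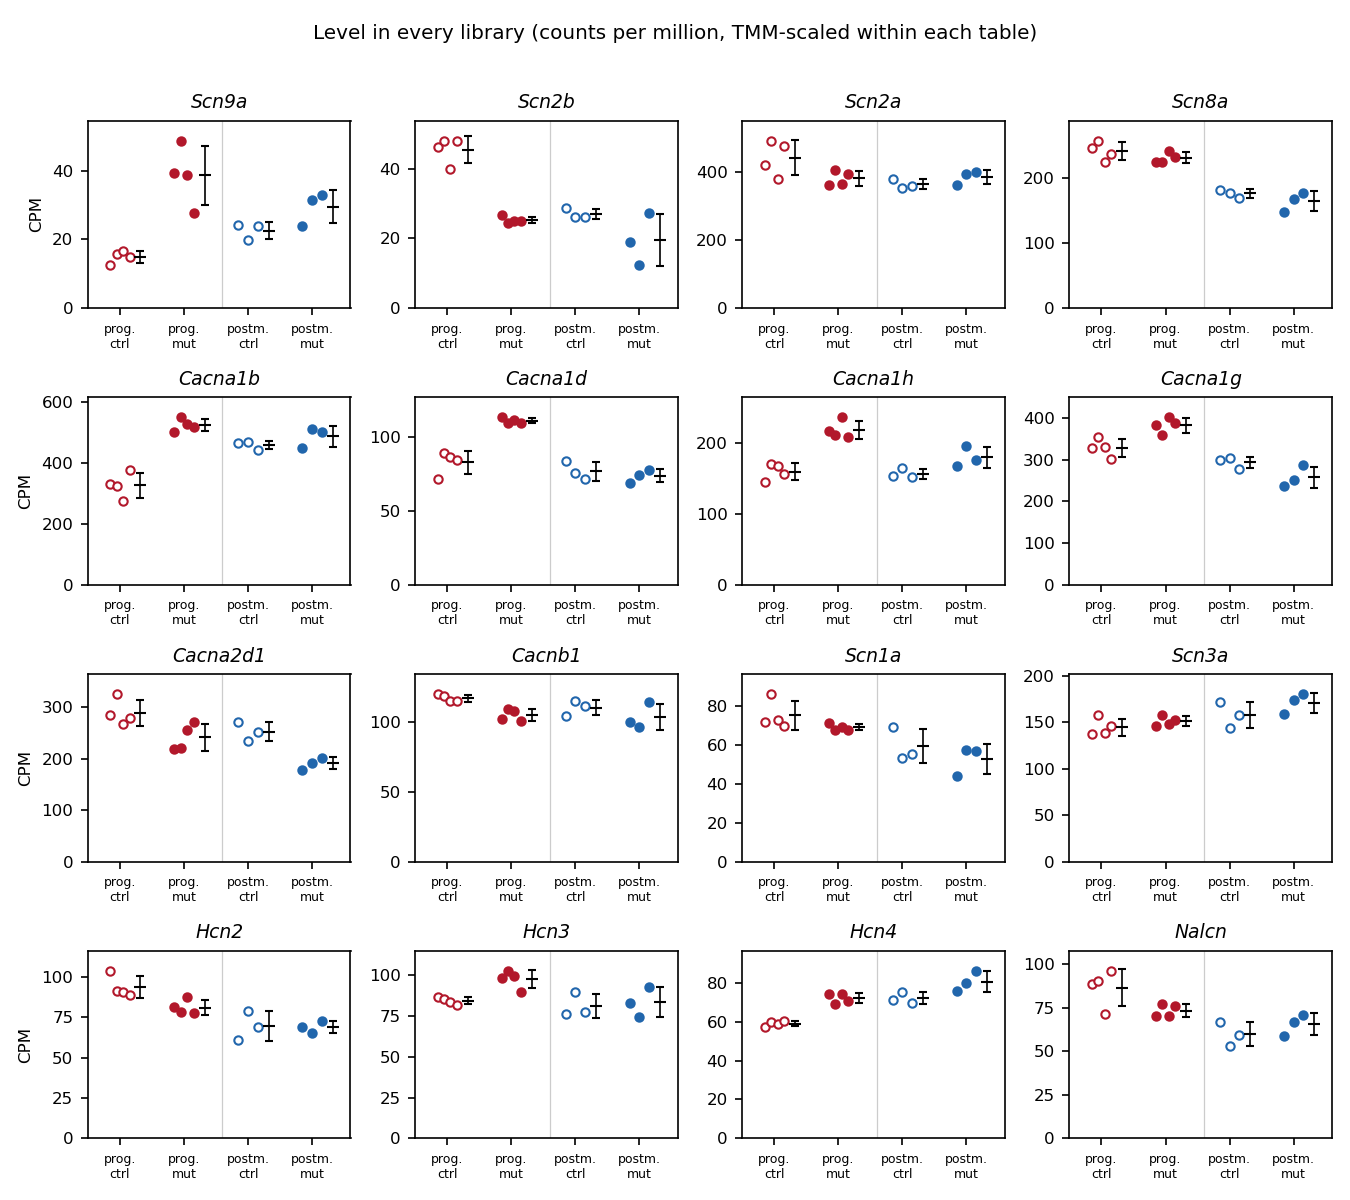
CPM of 16 channel genes in every library, with open points for controls and filled points for libraries labelled mutant, red for the progenitor (n = 4 each) and blue for the postmitotic experiment (n = 3 each). Bars are means ± SD, and each panel has its own linear axis from 0. In the progenitor experiment Scn9a, Cacna1b, Cacna1d, Cacna1h and Hcn4 lie higher, and Scn2b lower, in all 4 libraries labelled mutant than in any control.

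Of the calcium alpha-1 subunits, 1 gene of the Cav1 class, 1 of Cav2 and 2 of Cav3 rose, and 0 fell. Cacna1b, the pore of the N-type channel of presynaptic terminals, had 330, 323, 275 and 379 CPM in progenitor controls and 503, 550, 528 and 519 CPM in libraries labelled mutant. Its lowest library labelled mutant stood well above its highest control, and the log2 fold change was 0.68 ± 0.08 (SE), 60.7% higher (edgeR adjusted p = 0.000302). The other Cav2 genes, Cacna1a of the P/Q-type and Cacna1e of the R-type channel, had 0.05 ± 0.07 and 0.34 ± 0.16 (SE) and were not called. Cacna1e was called higher, at 0.49 ± 0.12 (SE; edgeR adjusted p = 0.0237), without progenitor control 2, the highest of its controls (256 CPM).

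Cacna1d, an L-type pore that opens at more negative voltages than Cacna1c, had 71.9, 89.7, 86.7 and 84.5 CPM in progenitor controls and 114, 110, 112 and 110 CPM in libraries labelled mutant, 0.42 ± 0.06 (SE; edgeR adjusted p = 0.00131). The groups did not overlap. Cacna1c, the main L-type pore of the brain, had 115 to 151 against 150 to 159 CPM, an overlapping 0.19 ± 0.07 (SE; edgeR adjusted p = 0.0920). Without progenitor control 2 it was called higher at 0.24 ± 0.07 (SE; edgeR adjusted p = 0.0400). Cacna1f of the retina and Cacna1s of skeletal muscle had 15 to 43 counts a library and were not called. Cacna1d overlaps Chdh and Dcp1a on the opposite strand, whose reads could not be told apart if strand was not used in counting. The same limit holds for Cacna1h, which overlaps Tpsg1, and for Hcn3, which overlaps Pklr. It also holds for Cacna1b, Scn2b, Cacna2d1 and Cacnb1, which overlap predicted genes on the opposite strand.

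T-type pores open near rest. Cacna1h had 144, 170, 168 and 156 CPM in progenitor controls and 216, 211, 236 and 209 CPM in libraries labelled mutant, and Cacna1g had 327, 355, 331 and 302 against 383, 359, 402 and 387 CPM. Neither pair of groups overlapped, though for Cacna1g the highest control (355) came close to the lowest library labelled mutant (359). The log2 fold changes were 0.45 ± 0.06 (SE; edgeR adjusted p = 0.000740) for Cacna1h and 0.22 ± 0.06 (SE; edgeR adjusted p = 0.0201) for Cacna1g. The call on Cacna1g was lost without control 4 or without library 3 labelled mutant (edgeR adjusted p up to 0.0650). Cacna1i, the third T-type gene, was at -0.04 ± 0.09 (SE) and not called.

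The auxiliary subunits of calcium channels gave 0 higher and 2 lower of 8. Cacna2d1, the alpha-2-delta subunit that gabapentin binds, had 285, 325, 267 and 280 CPM in progenitor controls and 218, 221, 256 and 270 CPM in libraries labelled mutant. Library 4 labelled mutant lay within the range of the controls. The log2 fold change was -0.26 ± 0.08 (SE; edgeR adjusted p = 0.0398), and the call held without control 3 or library 4 labelled mutant but not without any of the other 6 libraries (edgeR adjusted p up to 0.116). Cacnb1, a cytoplasmic beta subunit, had 120, 118, 115 and 115 against 102, 109, 108 and 101 CPM, without overlap. Its -0.16 ± 0.05 (SE; edgeR adjusted p = 0.0323) was likewise lost in 6 of the 8 fits that left out 1 library, and kept without control 3 or library 2 labelled mutant (edgeR adjusted p up to 0.108). Cacnb3 and Cacnb4 were called higher and lower only when progenitor control 1 or control 3, respectively, was left out.

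The HCN genes described here split, with Hcn4 and Hcn3 higher and Hcn2 lower. Hcn4, the slow channel of the cardiac pacemaker that thalamic and other neurons also use, had 57.2, 59.6, 58.8 and 60.5 CPM in progenitor controls and 74.3, 69.2, 74.2 and 70.8 CPM in libraries labelled mutant. This gave 0.29 ± 0.05 (SE; edgeR adjusted p = 0.00180), with no overlap. Hcn3, a member with little response to cAMP, had 86.4, 85.8, 83.9 and 81.7 against 98.3, 103, 99.6 and 90.0 CPM, 0.21 ± 0.05 (SE; edgeR adjusted p = 0.0141), again apart. Hcn2, a fast cAMP-gated member found widely in the brain, had 104, 91.4, 90.5 and 88.6 against 81.1, 78.0, 87.2 and 77.5 CPM. Its groups did not overlap, by a margin of 88.6 to 87.2 CPM, and its -0.21 ± 0.06 (SE; edgeR adjusted p = 0.0315) was lost in 5 of 8 fits that left out 1 library, those without control 1 or 2 or without library 1, 2 or 4 labelled mutant (edgeR adjusted p up to 0.0860). Nalcn had 88.7, 90.0, 71.4 and 96.1 CPM in controls and 70.2, 76.9, 70.4 and 75.8 CPM in libraries labelled mutant, -0.24 ± 0.08 (SE; edgeR adjusted p = 0.0550). Its control 3, too, lay within the range of the other group, and without that library it was called lower at -0.32 ± 0.06 (SE; edgeR adjusted p = 0.00322). Control 3 was the lowest control of Nalcn, so the difference grew by that choice, as for Scn2a. In all, 7 members were called lower without control 3, against 4 with it. Without it 11.9% of all tested genes were called lower and 24.1% in either direction. By DESeq2 6 members were lower, with Nalcn and Scn2a added to the 4, where 12.6% of all genes were called lower and 24.3% in either direction. With the replicate number as a block 20.1% of all genes were called, at a threshold of 0.01 10.2%, and with the Y-linked CPM as a covariate 8.16%. In the authors' deposited table of the progenitor experiment, the same 11 members were called in the same directions, with Nalcn and Scn2a lower as well.

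As a share of the summed level per kb of Hcn2, Hcn3 and Hcn4, which is a description with no test, Hcn2 went from 49.4 ± 1.65% in progenitor controls to 41.8 ± 1.13% in libraries labelled mutant (SD, n = 4 each). Hcn3 went from 34.3 ± 0.78% to 38.8 ± 1.49% and Hcn4 from 16.3 ± 0.98% to 19.4 ± 0.65%. The groups did not overlap for any of the 3. Shares of the same sum are not separate results, since a rise of some is a fall of others. By CPM, the groups did not overlap for 27% of all tested genes in the progenitor experiment. Scn2a made up 50.6 ± 2.10% and 47.5 ± 1.39% of the summed level of Scn1a, Scn2a, Scn3a and Scn8a, Scn8a 22.5 ± 1.11% and 23.4 ± 1.15%, Scn3a 17.0 ± 0.66% and 19.3 ± 0.19%, and Scn1a 9.90 ± 0.75% and 9.88 ± 0.50%. Of these, the groups were apart for Scn3a and overlapped for the other 3. In postmitotic controls the shares were 49.4 ± 0.83% for Scn2a, 22.0 ± 0.93% for Scn3a, 19.4 ± 0.80% for Scn8a and 9.22 ± 0.80% for Scn1a (SD, n = 3), and 40.9 ± 1.88% for Hcn2, 36.8 ± 0.66% for Hcn3 and 22.3 ± 1.39% for Hcn4. In postmitotic libraries labelled mutant Scn2a had 51.1 ± 0.85%, Scn3a 23.2 ± 0.25%, Scn8a 17.7 ± 0.42% and Scn1a 8.0 ± 0.65% (SD, n = 3). All 4 sodium shares were apart from their controls there, those of Scn2a and Scn3a above and those of Scn8a and Scn1a below, though none of the 4 genes was called. These too are parts of the same sum. The margins were small for Scn2a (highest control 50.1%, lowest library labelled mutant 50.3%) and Scn1a (lowest control 8.69%, highest library labelled mutant 8.48%). By CPM, the groups did not overlap for 16.4% of all tested genes in the postmitotic experiment. The HCN shares, 39.3 ± 0.85% for Hcn2, 36.6 ± 1.54% for Hcn3 and 24.1 ± 1.27% for Hcn4, overlapped those of controls.

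**Figure D4:**
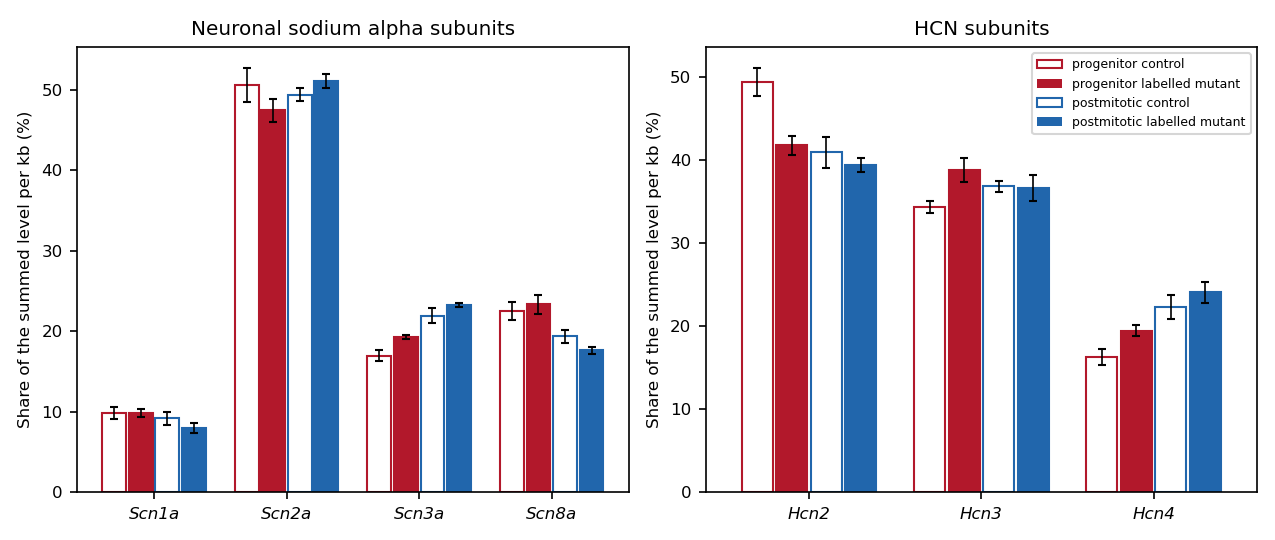
Share of each subunit in the summed level per kb of the genes drawn beside it, in percent, for 4 neuronal sodium alpha subunits (left) and Hcn2, Hcn3 and Hcn4 (right). Bars are means from 0 and error bars the SD, with n = 4 progenitor and n = 3 postmitotic libraries a group. Scn2a and Hcn2 have the largest mean share in each control group, and the Hcn2 bar is lower in progenitor libraries labelled mutant (41.8%) than in their controls (49.4%).

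In the postmitotic experiment Cacna2d1 fell and no other member was called. It had 271, 234 and 253 CPM in postmitotic controls 1 to 3 and 179, 192 and 202 CPM in libraries 1 to 3 labelled mutant, 253 ± 18.7 against 191 ± 11.5 CPM (SD, n = 3 each). The groups did not overlap. The log2 fold change was -0.40 ± 0.07 (SE), 24.4% lower (edgeR adjusted p = 0.00982), and the call held when each of the 6 libraries was left out (edgeR adjusted p up to 0.0414). With Scn4b also too low to be tested here, this is 1 of 30 tested members, or 3.33%, where 1.96% of 17775 tested genes were called (0.895% higher and 1.06% lower), so the share of members is near the background. An unadjusted p under 0.05 was reached by 9 of the 30 members and by 11.4% of all tested genes. The groups did not overlap for 7, against 16.4% of all tested genes, and the median log2 fold change was 0.08, against -0.0022 over all tested genes.

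The genes called in the progenitor experiment had the following values in postmitotic controls 1 to 3 and libraries 1 to 3 labelled mutant. Scn9a had 24.1, 19.7 and 23.8 against 23.9, 31.5 and 32.9 CPM, with library 1 labelled mutant inside the control range, and 0.38 ± 0.13 (SE; edgeR adjusted p = 0.203). It was called higher when that library was left out, at 0.51 ± 0.11 (SE; edgeR adjusted p = 0.0386). Scn2b had 28.8, 26.1 and 26.1 against 18.9, 12.4 and 27.3 CPM: libraries 1 and 2 labelled mutant were low and library 3 was not. Its log2 fold change was -0.47 ± 0.27 (SE; edgeR adjusted p = 0.610), and without library 3 labelled mutant it was called lower at -0.79 ± 0.16 (SE; edgeR adjusted p = 0.0219). For both genes the library left out was the one nearest the controls, so the difference grew by that choice. Library 3 was also the only one labelled mutant there with Y-linked CPM above 1. The authors' deposited table of the postmitotic experiment calls Scn2b lower, at a log2 fold change of -0.80, along with Cacna2d1. The mean counts in the authors' deposited table match those of libraries 1 and 2 of each group within 0.1% for 100% of 17372 genes, and those of all 6 libraries for 0.789%. In these 4 libraries alone Scn2b was called lower here too, at -0.81 ± 0.18 (SE; edgeR adjusted p = 0.0475), where 1.75% of all genes were called. In these 4 libraries the label cannot be told apart from the Y-linked counts. Controls 1 and 2 had 164 and 134 CPM of the Y-linked genes, and libraries 1 and 2 labelled mutant had 0. With no filter on low counts 2.12% of all genes were called in the postmitotic experiment.

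Among the calcium pores, Cacna1b had 467, 469 and 444 against 449, 511 and 503 CPM, with overlap. Cacna1d had 84.0, 75.6 and 71.6 against 69.1, 74.9 and 77.9 CPM and Cacna1g 299, 303 and 279 against 238, 251 and 287 CPM, again with overlap. Cacna1h had 153, 165 and 151 against 168, 196 and 176 CPM, without overlap but not called (0.20 ± 0.07, SE; edgeR adjusted p = 0.246). Cacna1a was also apart, at 117, 132 and 136 against 110, 109 and 111 CPM, and not called (-0.22 ± 0.07, SE; edgeR adjusted p = 0.170). Cacna1s rested on 12 to 16 counts in controls and 2 to 7 in libraries labelled mutant (-1.83 ± 0.49, SE; edgeR adjusted p = 0.0872). It passed the filter on low counts through its controls, which favours a negative value, and no result is drawn from it. Cacnb1 had 104, 115 and 112 against 100, 96.4 and 115 CPM, with overlap. Cacnb2, a beta subunit best known from the heart, had 10.8 to 11.8 against 13.4 to 14.9 CPM, apart, and was not called.

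In the HCN family, Hcn4 had 71.4, 75.5 and 69.5 against 75.6, 79.9 and 86.1 CPM, apart by 75.5 to 75.6 CPM, and was not called (0.16 ± 0.07, SE; edgeR adjusted p = 0.431). Hcn2 had 60.7, 78.9 and 68.8 against 68.7, 65.1 and 72.5 CPM and Hcn3 76.3, 89.7 and 77.4 against 83.0, 74.4 and 92.9 CPM. Both overlapped. Among the neuronal sodium alphas, Scn1a had 69.4, 53.6 and 55.6 against 44.1, 57.4 and 57.1 CPM and Scn2a 379, 353 and 356 against 361, 393 and 398 CPM. Scn3a had 172, 144 and 158 against 159, 174 and 180 CPM and Scn8a 183, 177 and 169 against 148, 169 and 177 CPM. These 4 overlapped too, and their 95% bounds ran from -0.44 (Scn1a) to 0.28 (Scn3a).

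Whether the change differed between the experiments was tested as the interaction of experiment and label over all 14 libraries and the 24690 shared symbols. It was called for 4 of 31 tested members, or 12.9%, where 6.94% of all 15643 tested genes were called (3.84% with a more positive change in the progenitor experiment and 3.1% with a more negative one). Cacna1b, Cacna1d, Cacna1g and Scn9a had the more positive change in the progenitor experiment. The differences, progenitor minus postmitotic, were 0.60 ± 0.12 for Cacna1b (SE; edgeR adjusted p = 0.00573), 0.48 ± 0.11 for Cacna1d (0.0126), 0.41 ± 0.10 for Cacna1g (0.0195) and 0.99 ± 0.23 for Scn9a (0.0220). Cacna1g was positive in the progenitor experiment (0.22) and negative in the postmitotic (-0.18). For Scn2b the difference was -0.38 ± 0.25 (SE; edgeR adjusted p = 0.392), with 95% bounds of -0.91 and 0.16, and for Cacna2d1 it was 0.14 ± 0.12 (SE; edgeR adjusted p = 0.513), with bounds of -0.11 and 0.40. With the Y-linked CPM of each library as a covariate, 0 of the 4 differences passed (edgeR adjusted p of 0.0630 to 0.169), while the values were 0.52 for Cacna1b, 0.39 for Cacna1d, 0.30 for Cacna1g and 0.96 for Scn9a, and 1.98% of all tested genes were called. At a threshold of 0.01 the share of all genes was 1.87%, with the replicate number as a block 4.21%, and by DESeq2 10.9%. Those of Scn9a and Cacna1g were also lost without postmitotic control 1 or without postmitotic library 1 labelled mutant, Scn9a without control 3 and Cacna1g without control 2.

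**Figure D5:**
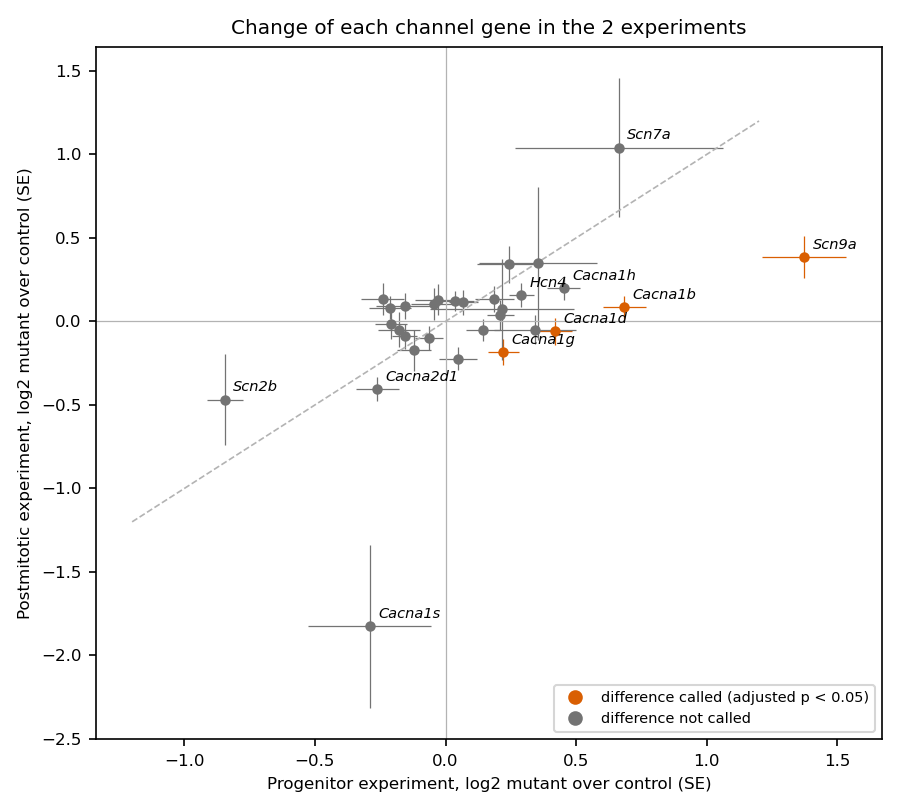
Log2 fold change of the 30 channel genes tested in both experiments, progenitor on the horizontal and postmitotic on the vertical axis, each with its SE. The dashed line marks equal change, and orange points have a called difference. Scn9a, Cacna1b, Cacna1d and Cacna1g lie right of the line, at 0.22 to 1.37 on the horizontal axis and -0.18 to 0.38 on the vertical.

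Other genes of the channel complexes were taken from a list of 43 partners, of which 41 were tested in each experiment. The progenitor comparison called 8 higher and 8 lower, where 12% of all tested genes were higher and 11.4% lower, with a median log2 fold change of -0.02. Of 11 sodium channel partners 4 were higher and 1 lower. The higher ones were led by Sptbn4, the beta-IV spectrin of the axon initial segment, with 221 ± 12.8 CPM in controls and 307 ± 13.1 in libraries labelled mutant (SD, n = 4 each; 0.47 ± 0.06, SE; edgeR adjusted p = 0.000247). Nedd4l, a ubiquitin ligase that removes sodium channels from the surface, rose by 0.29 ± 0.07 (SE; edgeR adjusted p = 0.00951). Fgf12, an intracellular fibroblast growth factor homolog that binds the tail of sodium channels, fell (-0.36 ± 0.10, SE; edgeR adjusted p = 0.0284), with overlapping groups. Of 24 calcium channel partners 2 were higher and 5 lower. Of those called, Cacng3, Cacng4 and Cacng5 are trafficking subunits of AMPA receptors, despite their calcium channel names. Cacng3 fell by 1.02 on the log2 scale (SE 0.08), from 35.2 ± 4.15 to 17.4 ± 0.35 CPM (edgeR adjusted p = 2.85e-05). Camk2a, a kinase that calcium entry activates, fell by 0.81 (SE 0.08; edgeR adjusted p = 7.77e-05), Cacng5 by 0.65 (SE 0.12; edgeR adjusted p = 0.00319) and the calmodulin genes Calm2 and Calm3 by 0.31 and 0.25. Cacng4 and Tspoap1, whose protein ties presynaptic calcium channels to vesicle sites, rose by 0.21 ± 0.06 and 0.27 ± 0.06 (SE). Flna, a filamin that binds HCN channel protein (0.49 ± 0.07, SE), and Unc79 of the NALCN complex (0.31 ± 0.06, SE) rose as well, while Kctd3 of the HCN partners (-0.20 ± 0.06, SE; edgeR adjusted p = 0.0243) and Fam155a of the NALCN complex (-0.21 ± 0.06, SE; edgeR adjusted p = 0.0249) fell, so that each of these lists had 1 gene in either direction. In the postmitotic experiment Camk2a was the only partner called of 41, where 1.96% of all tested genes were, with 260 ± 10.3 against 184 ± 19.9 CPM (SD, n = 3 each; -0.50 ± 0.08, SE; edgeR adjusted p = 0.00381). The difference between the experiments was called for 7 of 42 tested partners, where 6.94% of all tested genes were, with Sptbn4 (0.49 ± 0.09, SE), Stac3, Tspoap1, Flna and Unc79 more positive and Cacng3 (-0.68 ± 0.14, SE) and Stac more negative in the progenitor experiment.

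Some markers of cell types and of maturation were called in each experiment, and their part in the channel results was not tested. Over all tested genes, 23.4% were called in the progenitor experiment (12% higher, 11.4% lower) and 1.96% in the postmitotic. Progenitor lists with 2 genes called of 8 or of 12 were near or below that share. Among progenitor libraries, 4 of 8 astrocyte markers were lower under the mutant label, among them Slc1a2 (-0.62), S100b (-0.82) and Aldoc (-0.38), and their summed level was 1743 to 2261 CPM in controls and 1380 to 1715 CPM in libraries labelled mutant. Of 12 interneuron markers 2 were lower, Slc32a1 (-0.53) and Gad1 (-0.33), with sums of 426 to 536 and 422 to 467 CPM. Of 8 microglia markers 2 were lower, with sums of 131 to 192 and 108 to 144 CPM. Of 9 oligodendrocyte lineage markers 3 were higher, Cspg4, Pdgfra and Mog, with sums of 544 to 634 and 577 to 689 CPM. Of 8 endothelial and mural markers Abcc9 and Rgs5 were higher (sums of 304 to 446 and 362 to 516 CPM), and of 8 tested deep-layer and subplate markers Cplx3 and Nr4a2 were lower (307 to 455 and 259 to 428 CPM). Among 6 tested markers of immature neurons 4 were higher, led by Sox11 (0.62), with sums of 4915 to 5313 and 5291 to 5815 CPM. Among 9 of upper-layer excitatory neurons 4 were higher and Slc17a7, the vesicular glutamate transporter that rises with maturation, was lower (-0.78), with sums of 1968 to 2159 and 1969 to 2255 CPM. In the postmitotic experiment Sox11 was higher (0.28; immature sums of 6283 to 6424 in controls and 6936 to 7616 CPM in libraries labelled mutant), as were 3 deep-layer markers, Tbr1, Tle4 and Foxp2 (323 to 339 and 365 to 451 CPM). Of the upper-layer markers there, Cux1, Neurod6 and Rorb were lower and Neurod2 higher (2280 to 2396 and 2333 to 2471 CPM), and markers of glia, vessels and interneurons were not called. NexCre is driven from Neurod6 and only the libraries labelled mutant carry it. The lower Neurod6 thus cannot be told apart from the driver allele and is not read as a marker of cell type. The 8 astrocyte markers there all had negative log2 fold changes (median -0.22; S100b -0.56, Aqp4 -0.40, Gfap -0.32), with sums of 816 to 910 CPM in controls and 704 to 821 CPM in libraries labelled mutant. The other sums were 62.0 to 65.4 and 51.9 to 62.4 CPM for microglia, 367 to 413 and 344 to 392 CPM for the oligodendrocyte lineage, 217 to 262 and 197 to 238 CPM for endothelial and mural cells and 491 to 520 and 517 to 549 CPM for interneurons. Cajal-Retzius markers were not called in either experiment. With the Y-linked CPM as a covariate, Scn9a, Cacna1b, Cacna1d, Cacna1h, Hcn4 and Scn2b kept their progenitor calls (edgeR adjusted p up to 0.0224), and Hcn3, Cacna1g, Cacna2d1, Cacnb1 and Hcn2 did not (edgeR adjusted p of 0.0824 to 0.323). Their log2 fold changes with the covariate were 0.24 for Hcn3, 0.24 for Cacna1g, -0.38 for Cacna2d1, -0.17 for Cacnb1 and -0.16 for Hcn2, against 0.21, 0.22, -0.26, -0.16 and -0.21 without it.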

How the data were processed

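The authors deposited whole-number read counts per gene symbol for each experiment, not normalised, and tables of DESeq2 log2 fold changes and p-values, per the file headers. HISAT2, featureCounts and build mm10 are named in the submitters' processing notes. Versions, the annotation and whether strand was used are not stated in the sources at hand. Per the labels' protocols, libraries were made with the NEBNext Ultra II directional kit and read as pairs of 150 bases. In the deposited tables of fold changes, "na" inside symbols had been replaced by 0, and 15 member symbols were restored. Every column of the count tables (0 others) belongs to a sample of the series.

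Counts were tested in each table alone with edgeR 4.0.16 in R 4.3.3: low genes removed by filterByExpr, scaling by TMM, and a quasi-likelihood F test with robust dispersions, with Benjamini-Hochberg adjustment over all tested genes and calls at an adjusted p under 0.05. The difference between experiments was the interaction in a joint fit. The SE is the log2 fold change divided by the square root of F. Exon lengths and positions come from GENCODE M21 on GRCm38/mm10. The procedure was run on simulated counts with the same dispersion for every gene. That setting is simpler than these data, so it does not check the calls made here. Same-numbered libraries did not deviate together (correlations of -0.44 to 0.09 in the progenitor and -0.20 to 0.03 in the postmitotic experiment), so the numbers were not used as pairs. No 2 replicates agreed within sampling noise (chi-square of 6.31 to 19.6 per degree of freedom), and all were kept.

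Alternatives were DESeq2 1.42.0, limma-voom (limma 3.58.1), RLE and upper-quartile factors, other filters on low counts, no robust step, a threshold of 0.01, the replicate number as a block, the summed CPM of 4 Y-linked genes as a covariate, each library left out, and, for the postmitotic experiment, libraries 1 and 2 of each group alone. Values by library are given for members called in any test and for Scn1a, Scn2a, Scn3a, Scn8a and the HCN genes described, and partners and markers by smallest p. All other members named with values, counts or ranges, and the partners Fgf12, Kctd3 and Fam155a, were chosen after their values were seen. Some results of the rule and of the lists are not reported here: those genes stayed in every fit and are left out of the counts, shares and plots. The members, the lists and the tests were chosen with earlier results of these data known.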

Additional observations from a re-analysis of the deposited data

Results flagged for a closer look

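For 4 channel genes the change differed between the experiments in the test of the interaction (edgeR, Benjamini-Hochberg adjusted p in parentheses), as progenitor minus postmitotic log2 fold change: 0.60 for Cacna1b (0.00573), 0.48 for Cacna1d (0.0126), 0.41 for Cacna1g (0.0195) and 0.99 for Scn9a (0.0220). For each of these genes, all 4 progenitor libraries labelled mutant lay above all 4 controls, while the postmitotic groups overlapped. The genes were picked by a test on the same counts, so this pattern is not separate evidence of a difference. Of all tested genes, 27% had progenitor groups without overlap by CPM, and 16.4% had postmitotic groups without overlap. The experiments also differ in how Cre was delivered, in the tables their counts come from, and in the Y-linked counts of their groups. With the Y-linked CPM as a covariate none of the 4 passed, and the differences were 0.52, 0.39, 0.30 and 0.96 in the same order. The manner of Cre delivery and the tables cannot be told apart from the experiments. Among 30 groups of 4 progenitor libraries checked for a library far from the others, 0 were found. With 4 libraries a group such a check can easily miss one, so it does not show that none stood apart. Postmitotic groups were not among those checked.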

How the results depend on the processing

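The count of members called lower in the progenitor experiment (4) depended most on the setting: 1 at a threshold of 0.01 or with the Y-linked covariate, and 1 to 7 with a library left out, 7 of them without control 3; DESeq2 gave 6. The replicate block gave 7 higher and 4 lower there; it ended the calls on Cacna2d1 and Cacnb1 (the latter also lost with no filter on low counts) and, like DESeq2, made calls of Nalcn and Scn2a. In the postmitotic experiment 1 member was higher and 2 lower with no filter on low counts (Scn9a; Cacna1s and Cacna2d1), 2 were lower in libraries 1 and 2 alone, and leaving out a library gave 0 to 1 higher and 1 to 2 lower. For the difference, 1 higher and 0 lower passed at 0.01, 0 and 0 with the Y-linked covariate, 3 and 0 under the replicate block (Cacna1g lost), and 2 to 5 and 0 to 2 with a library left out. Partners, with a library left out, gave 5 to 10 higher and 5 to 8 lower (progenitor), 1 to 3 lower (postmitotic), and 3 to 6 higher and 1 to 5 lower (difference, and 5 lower with DESeq2). The calls over all genes varied as well. With a library left out, 1245 to 1881 were higher and 1108 to 1831 lower of 15392 to 15487 tested (progenitor). In the postmitotic experiment 69 to 191 were higher and 91 to 276 lower of 18096 to 18197. For the difference 322 to 757 were higher and 276 to 724 lower of 15564 to 15864. Without division by length the control shares were, in the progenitor and postmitotic tables, Scn1a 8.36% and 7.84%, Scn3a 16.0% and 20.9%, Scn8a 26.8% and 23.3%, and Hcn2 39.4% and 31.1%, Hcn4 24.9% and 32.5%, with Hcn3 35.6% in the progenitor and Scn2a 48.0% in the postmitotic table. For Lhx2 in the postmitotic experiment, edgeR called the log2 fold change of 0.29 (adjusted p = 0.0276), which an exact permutation test of 3 against 3 cannot. Direction changed for uncalled values near 0. With a library left out, these ran in the postmitotic experiment from -0.11 to 0.0062 (Cacna1d), -0.10 to 0.088 (Hcn2) and -0.044 to 0.12 (Hcn3), and for the difference from -0.12 to 0.0054 (Cacnb1), -0.087 to 0.12 (Scn1a), -0.12 to 0.018 (Scn3a) and -0.033 to 0.089 (Scn8a). Libraries 1 and 2 alone gave -0.074 for Hcn3, and the Y-linked covariate gave a difference of -0.055 for Scn1a and -0.057 for Scn8a. The causes were not tested. Scn4a, Scn10a and Scn11a, and Scn4b in the postmitotic table, were too low in counts to be tested.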
